A study of Mus musculus with 32 samples.

Results

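Mouse 4-cell embryos cultured in KSOM medium with aphidicolin were compared with 4-cell embryos given the solvent DMSO. The comparison rests on 4 of the 32 libraries of the series, 2 per group, chosen by their labels, and covers every gene row and repeat row of the deposited count tables. Both groups are wild type (WT in the labels), from females of 6 to 8 weeks, and the titles give in vitro fertilisation for both. Aphidicolin is the only labelled difference. The dose, the hours of exposure, the mouse strain, the number of embryos per library and whether the embryos divided in the drug are all not given in the sources used here. Whether the 2 libraries of a group came from separate cultures is not stated either, and the p-values below can reflect only the spread from library to library, which may be technical.

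Aphidicolin blocks the replicative DNA polymerases and stalls DNA synthesis in S phase. Stalled forks are known to activate the ATR and CHK1 kinases, and persistent damage stabilises p53, a transcription factor that binds a repeated 10-base half-site and induces genes for cell cycle arrest, DNA repair and cell death. Replication-dependent histone mRNAs are made in S phase, end in a stem-loop in place of a poly(A) tail and are degraded when DNA synthesis stops. These libraries were made from polyadenylated RNA, so such histone mRNAs are seen only in part. At the 4-cell stage mouse embryos already run on their own transcripts, and most maternal RNA has been cleared.

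The promoters of a pair of p53 targets and of a linker histone gene are shown because the levels of these genes carry the results on p53 targets and histones. Each line gives the 250 bases before the transcription start, 5′ to 3′ on the gene's strand, from RefSeq on GRCm38.p6 (the mm10 build). In the first and second lines the capitals mark a 20-base match to the p53 site with 1 mismatch. In the last line they mark the histone H1 box AAACACA and each CCAAT box on either strand.
Ccng1, chr11:40755287-40755536, minus strand: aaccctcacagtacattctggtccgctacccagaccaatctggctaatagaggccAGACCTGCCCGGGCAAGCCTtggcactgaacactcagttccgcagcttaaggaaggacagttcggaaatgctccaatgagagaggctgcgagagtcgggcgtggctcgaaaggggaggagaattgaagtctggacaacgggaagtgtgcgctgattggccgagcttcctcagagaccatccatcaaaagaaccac
Cdkn1a, chr17:29090729-29090978, plus strand, first of its starts: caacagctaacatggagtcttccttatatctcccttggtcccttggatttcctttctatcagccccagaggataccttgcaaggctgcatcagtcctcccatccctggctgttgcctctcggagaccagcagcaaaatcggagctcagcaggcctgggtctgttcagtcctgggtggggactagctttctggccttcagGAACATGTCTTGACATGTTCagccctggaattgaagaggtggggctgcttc
Hist1h1b (H1f5 in RefSeq), chr13:21780626-21780875, minus strand: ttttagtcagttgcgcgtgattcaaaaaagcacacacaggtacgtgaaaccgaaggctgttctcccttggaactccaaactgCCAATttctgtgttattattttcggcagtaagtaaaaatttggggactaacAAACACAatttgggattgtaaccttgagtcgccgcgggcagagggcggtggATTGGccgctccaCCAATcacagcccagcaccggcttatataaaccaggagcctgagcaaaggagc

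The 4 libraries held 29079599 to 34713159 counts, and 15.02 to 21.9% of these lay in repeat rows. Replicate 2 of the aphidicolin group stood apart. Its log2 levels correlated with those of replicate 1 at a Pearson r of 0.884 across genes and repeat subfamilies, and with the DMSO libraries at 0.883. Replicate 1 correlated with the DMSO libraries at 0.908 and 0.910, and the DMSO pair at 0.922 (genes and repeats are not independent replicates). Replicate 2 also differed in single features. It held 4 counts of Xist, the RNA that coats the inactive X chromosome, where the others held 1287 to 2045, and B2 SINE repeats took 3.37% of its counts against 6.00 to 12.7%. Y-linked genes did not go 1 way in it. It held 951 counts of Eif2s3y (471 to 582 in the others), 77 of Uty (8 to 100), 28 of Ddx3y (58 to 215) and 2 of Kdm5d (10 to 44). The part of embryo sex in the results was not tested. Values without this library are given for most gene lists and for a part of the features. Ribosomal protein transcripts summed to 93858 and 63070 CPM (counts scaled to library size) with aphidicolin and to 106530 and 98500 with DMSO, against 3258 and 3405 in 2-cell DMSO embryos, so both groups had passed the 2-cell level of this list. Oocyte transcripts summed to 20945 and 11465 CPM with aphidicolin, 20254 and 19187 with DMSO, and 70326 and 91570 at the 2-cell stage. Of the markers of other cells, 10 of 20 cumulus genes and 8 of 17 sperm genes were at 0 in all 4 libraries. Cumulus marker sums were 396 and 276 CPM with aphidicolin and 443 and 421 with DMSO, lower in both treated libraries and above the 54.3 and 43.2 CPM of 2-cell DMSO embryos. Most of each sum was a single gene, Gja1. It was at 366 and 228 CPM with aphidicolin, 423 and 389 with DMSO, and 35.8 and 25.4 in 2-cell DMSO embryos. Sperm marker sums were 35.5 and 24.0 CPM against 26.4 and 33.5, and those of blood cells, with 2 of 14 genes at 0, were 93.4 and 41.9 against 33.5 and 56.1. Most of the blood sums was Hba-a1, at 75.6 and 27.6 against 24.2 and 46.8 CPM. The part of these cells in the results was not tested.

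No gene passed the test between aphidicolin and DMSO. With edgeR's quasi-likelihood test, fitted over the 8 libraries of the 4-cell stage, 0 of 22520 genes (0%) and 0 of 1003 repeat subfamilies (0%) had a Benjamini-Hochberg adjusted p under 0.05, the lowest being 0.441 and 0.501. At an unadjusted p under 0.05 there were 1845 genes (8.19%), 1130 higher (5.02%) and 715 lower (3.17%) with aphidicolin, and 77 repeat subfamilies (7.68%). The filter on low counts ran over all 8 libraries, while 17756 genes passed it with the aphidicolin and DMSO libraries alone. Some of the tested genes were therefore low in both groups. The count depended on the test. DESeq2's Wald test on the same rows called 224 genes (0.995%), 146 higher (0.648%) and 78 lower (0.346%). edgeR without a filter on low counts called 347 of 34105 genes (1.02%), 258 higher (0.756%) and 89 lower (0.261%), of which 160 were also called by DESeq2, 46.1% of one list and 71.4% of the other. A fit over all 18 embryo libraries called 72 of 27201 genes (0.265%), 57 higher (0.210%) and 15 lower (0.0551%). The median 95% interval reached 2.10 log2 units to either side of a gene's fold change, and 0.858 for the 6526 genes of at least 10 CPM. A 2-fold change could be excluded for 28.2% of these. The genes below are described by their levels, and "called" refers to a named alternative out of the 12 that were run (11 planned and the 18-library fit, which was added after the data were seen).

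Transcripts of p53 targets had higher levels with aphidicolin in a part of the list, although none passed edgeR's adjusted test. In libraries of whole embryos, more cells with a transcript and more of it per cell cannot be told apart. Of 39 tested targets, the libraries of both groups did not overlap for 19 higher and 3 lower genes (18.6 and 16.8% of all genes). At an unadjusted p under 0.05, 10 were higher and none lower, against 5.02 and 3.17% of all genes, and the median log2 fold change was 0.75 against 0.05 for all genes. Without aphidicolin replicate 2 the counts were again 10 and 0 with a median of 0.59, beside 3.43% of all genes higher and 2.64% lower. Without replicate 1 they were 11 and 3 with a median of 0.71, beside 6.49% and 5.30% of all genes. DESeq2 and the unfiltered edgeR fit each called the same 7 targets higher and none lower, namely Bbc3, Btg2, Ccng1, Cdkn1a, Plk2, Rrm2b and Trp53inp1. The 18-library fit called none of them.

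Ccng1 (ENSMUSG00000020326.7, chr11:40748552-40755311), which encodes cyclin G1, was at 63.8 and 65.0 CPM with aphidicolin and at 3.08 and 12.4 with DMSO. Both treated libraries were above both controls. Its log2 fold change was 3.06 (95% interval 1.61 to 4.51), with an adjusted p of 0.518 in edgeR and 0.000534 in DESeq2. Over the 12 alternatives the fold change ran from 2.37 to 4.36 and the adjusted p from 1.26e-07 to 0.628. Cdkn1a (ENSMUSG00000023067.14, chr17:29090976-29100727), the gene of the cyclin-dependent kinase inhibitor p21, was at 108 and 185 CPM with aphidicolin and at 18.6 and 38.0 with DMSO. The groups did not overlap, and aphidicolin replicate 2 was the higher treated library. The log2 fold change was 2.37 (1.18 to 3.57), and 1.93 without that library, with adjusted p-values of 0.518 in edgeR and 0.00186 in DESeq2 and a range of 1.26e-07 to 0.667.

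Plk2, a polo-like kinase gene, had 21.99 and 19.8 CPM with aphidicolin and 3.92 and 2.00 with DMSO, a log2 fold change of 2.81 (1.78 to 3.85) called in 2 of the 12 alternatives. Btg2, an antiproliferative gene, had 8.29 and 11.1 CPM against 2.00 and 1.65 (log2 fold change 2.40, 1.44 to 3.37). The treated libraries of both genes lay close together and well above the controls. Trp53inp1, whose product is a p53 cofactor, was at 110 and 112 CPM with aphidicolin and 43.8 and 40.1 with DMSO, a log2 fold change of 1.40 (0.81 to 2.00). Rrm2b, the p53-inducible ribonucleotide reductase subunit, was at 37.0 and 40.4 CPM against 16.3 and 12.2 (1.44, 0.64 to 2.24). These 4 genes had 2 calls each out of 12. Their direction was the same in all 12, which adds no evidence, since both treated libraries lay above both controls. Bbc3, which encodes the cell death activator PUMA, was at 2.84 and 0.713 CPM with aphidicolin and at 0.0350 and 0 with DMSO, where a single count was seen.

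**Figure D1:**
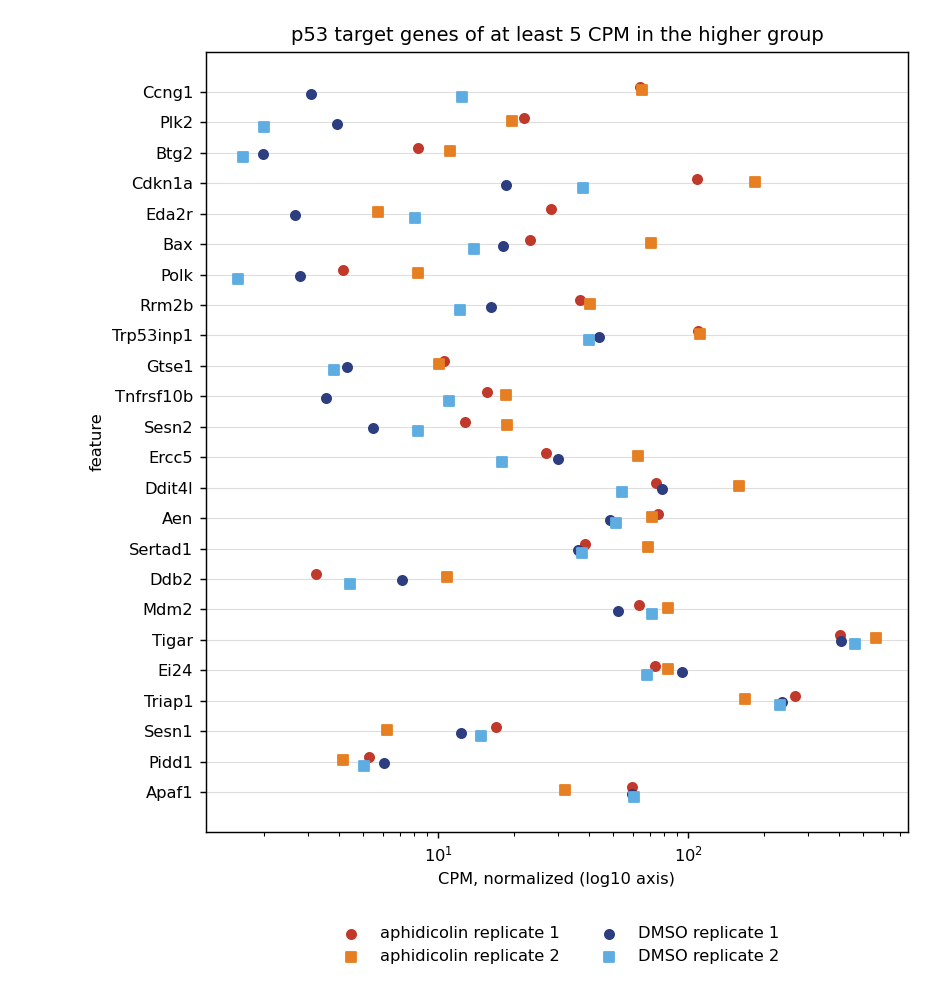
Normalized CPM (log10 axis) of the 24 p53 targets whose higher group averaged 5 CPM or more, ordered by fold change, with 1 point per library of the aphidicolin and DMSO groups. Ccng1, Plk2, Btg2 and Cdkn1a show both aphidicolin points to the right of both DMSO points, while Mdm2, Tigar and the genes under them overlap or lie close together.

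Other p53 targets overlapped between the groups or differed without a call in edgeR or DESeq2. Mdm2, whose product degrades p53, was at 63.7 and 82.9 CPM with aphidicolin and at 52.3 and 71.5 with DMSO. The interval of its log2 fold change of 0.24 (-0.38 to 0.87) excluded a 2-fold difference in either direction, and the value was 0.04 without replicate 2. Bax, a pore-forming cell death gene, was at 23.2 and 71.1 CPM against 18.2 and 13.9, with aphidicolin replicate 2 far above the rest. Trp53 itself was at 5.01 and 17.8 CPM with aphidicolin and at 9.88 and 17.3 with DMSO, with overlapping groups. Sesn1 and Apaf1, a stress gene and the apoptosome scaffold, had overlapping or lower values with aphidicolin, at 16.98 and 6.26 against 12.3 and 14.8 CPM for Sesn1 and 59.3 and 32.1 against 59.8 and 60.7 CPM for Apaf1. Gtse1, a G2 and S phase gene that is listed among p53 targets, was at 10.6 and 10.1 CPM against 4.31 and 3.81, both treated libraries being higher.

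A p53 site was found in some of these promoters. In RefSeq windows of 250 bases before to 50 after a start, 13700 of the 22520 tested genes matched, with 17203 windows. The 20-base site with at most 2 mismatches, searched on both strands and added after the data were seen, stood in 4 of 39 windows of the p53 targets (10.3%) and in 0.732% of all windows. Those 4 were Ccng1 (195 bases before the start), Cdkn1a (51 bases before), Cd80 (111 bases before) and Gtse1 (1 base before). The half-site, which is a part of the 20-base site, stood in 28.2% and 7.31%. Among the genes that DESeq2 called, 3.27% of 153 windows of higher genes and 1.49% of 67 windows of lower genes held the 20-base site. A match is a sequence description and does not show binding.

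Genes that sense and repair stalled forks had medians near 0. Of 33 checkpoint and replication stress factors, 1 was higher and 3 lower at a p under 0.05 before adjustment (5.02 and 3.17% of all genes), with a median log2 fold change of 0.00. Without aphidicolin replicate 2 these were 1 and 2 with a median of -0.04. Of 37 genes of homologous recombination and the Fanconi pathway, which repair broken and crosslinked forks, 4 were higher and none lower at that p, and 8 were higher and 11 lower without overlap (18.6 and 16.8% of all genes). Their median was 0.01, and without replicate 2 the counts were 3 and 0 with a median of 0.12. DESeq2 called none of either list. Chek1, the effector kinase, was at 50.3 and 78.5 CPM with aphidicolin and 59.9 and 43.3 with DMSO. Atr, which encodes the kinase upstream of it, was at 5.78 and 4.97 CPM against 5.96 and 5.65. Both genes had overlapping or nearly equal libraries. Topbp1, an activator of ATR, was at 74.6 and 49.4 CPM with aphidicolin and at 146 and 95.8 with DMSO, with both treated libraries lower (log2 fold change -0.97, -1.76 to -0.18, edgeR adjusted p = 0.579). H2afx, the histone variant marked at breaks, was at 1.76 and 4.94 CPM against 14.4 and 7.46, again lower in both treated libraries.

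Replication genes were likewise spread around 0. Of 49 replication and licensing genes, 1 was higher and 3 lower at a p under 0.05 before adjustment (5.02 and 3.17% of all genes), and the median was 0.02. Without aphidicolin replicate 2 these were 1 and 2 with a median of -0.05. Lig1, the ligase that joins Okazaki fragments, was at 5.48 and 3.35 CPM with aphidicolin and at 12.9 and 9.96 with DMSO (log2 fold change -1.38, -2.48 to -0.28). Mcm6, a helicase subunit, was at 82.0 and 93.6 CPM against 145 and 122 (-0.60, -1.14 to -0.06). Pcna, the sliding clamp, gave 92.9 and 176 CPM against 127 and 88.2 and overlapped (log2 fold change 0.32, and -0.22 without replicate 2). Pola1, which encodes a polymerase that aphidicolin inhibits, gave 145 and 73.4 CPM against 128 and 135. Lig1 and Mcm6 did not overlap between groups, but neither was called in edgeR or DESeq2 (edgeR adjusted p = 0.577 and 0.597). Rrm2, the S phase ribonucleotide reductase subunit, was at 308 and 293 CPM with aphidicolin and at 257 and 333 with DMSO (log2 fold change 0.03, -0.69 to 0.74), in contrast to its paralog Rrm2b above.

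Genes of G1 and S phase had a higher median with aphidicolin, and this rested mainly on replicate 2. Of 32 genes, 11 were higher and 1 lower without overlap (18.6 and 16.8% of all genes), and 2 were higher and none lower at a p under 0.05 before adjustment (5.02 and 3.17%). The median of 0.44 was 0.08 without aphidicolin replicate 2, with 1 higher and 2 lower (3.43 and 2.64% of all genes), and 0.69 without replicate 1, with 7 and 1 (6.49 and 5.30%). DESeq2 called Cdkn1a higher, and the unfiltered edgeR fit called Cdkn1a and Ccne1. Ccne1, cyclin E1, was at 94.9 and 246 CPM with aphidicolin and at 75.9 and 69.1 with DMSO, and its log2 fold change of 1.24 (0.17 to 2.30) was 0.39 without replicate 2. Ccne2, cyclin E2, was at 25.6 and 27.1 CPM against 15.9 and 24.4. Both cyclin E genes were higher in both treated libraries, by small margins outside replicate 2. Ccnb1, the mitotic cyclin B1, was at 1406 and 1865 CPM against 2066 and 2068 (-0.34, -1.02 to 0.34, and -0.56 without replicate 2). Of 68 mitosis genes, 3 were higher and none lower at a p under 0.05 before adjustment (5.02 and 3.17% of all genes), 2 and 1 without replicate 2 and 9 and 2 without replicate 1, with a median of 0.04.

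Replication-dependent histone transcripts had lower levels with aphidicolin, although none passed edgeR's adjusted test. Of 56 tested genes, 22 were lower and none higher without overlap (16.8 and 18.6% of all genes), and 11 were lower and none higher at an unadjusted p under 0.05 (3.17 and 5.02% of all genes). Their median log2 fold change was -1.43, and it was -1.98 without aphidicolin replicate 2 and -2.39 without replicate 1. Only 14 of the 56 genes averaged 1 CPM or more in the higher group, so these counts and medians rest largely on genes of very low level. DESeq2 called 2 lower, Hist1h1b and Hist1h4d, and the unfiltered edgeR fit called 7 of 66 lower, these 2 among them. The summed level of the list was 154 and 51.0 CPM with aphidicolin and 498 and 151 with DMSO, so the sums of both groups overlapped. Histone genes are near-identical copies, and how shared reads were counted is not given in the sources used here, so values of single genes are uncertain.

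Hist1h1b (ENSMUSG00000058773.2, chr13:21779883-21780625), which encodes a linker histone H1, was at 1.01 and 0.604 CPM with aphidicolin and at 14.4 and 12.3 with DMSO. The DMSO libraries lay close together, far above both treated ones. The log2 fold change was -4.04 (-5.40 to -2.68), with an adjusted p of 0.441 in edgeR and 8.91e-07 in DESeq2 and a range over the 12 alternatives of 8.91e-07 to 0.628. Hist1h4d, an H4 gene, was at 16.0 and 4.50 CPM against 40.0 and 47.9 (-2.10, -3.45 to -0.75, and -1.46 without replicate 2), called in 2 of the 12 alternatives. Other H1 genes had the same order: Hist1h1a was at 0.947 and 0.220 CPM against 2.84 and 4.31, and Hist1h1d at 0 in both treated libraries against 1.23 and 1.23. Hist1h1e was at 0.0338 and 0 CPM against 2.00 and 2.92. Hist1h2ao and Hist1h2ap, copies of H2A, had overlapping groups, at 72.4 and 14.5 against 210 and 28.2 CPM for Hist1h2ao and 41.6 and 9.60 against 150 and 14.3 CPM for Hist1h2ap. The unfiltered edgeR fit called both lower, and DESeq2 called neither.

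**Figure D2:**
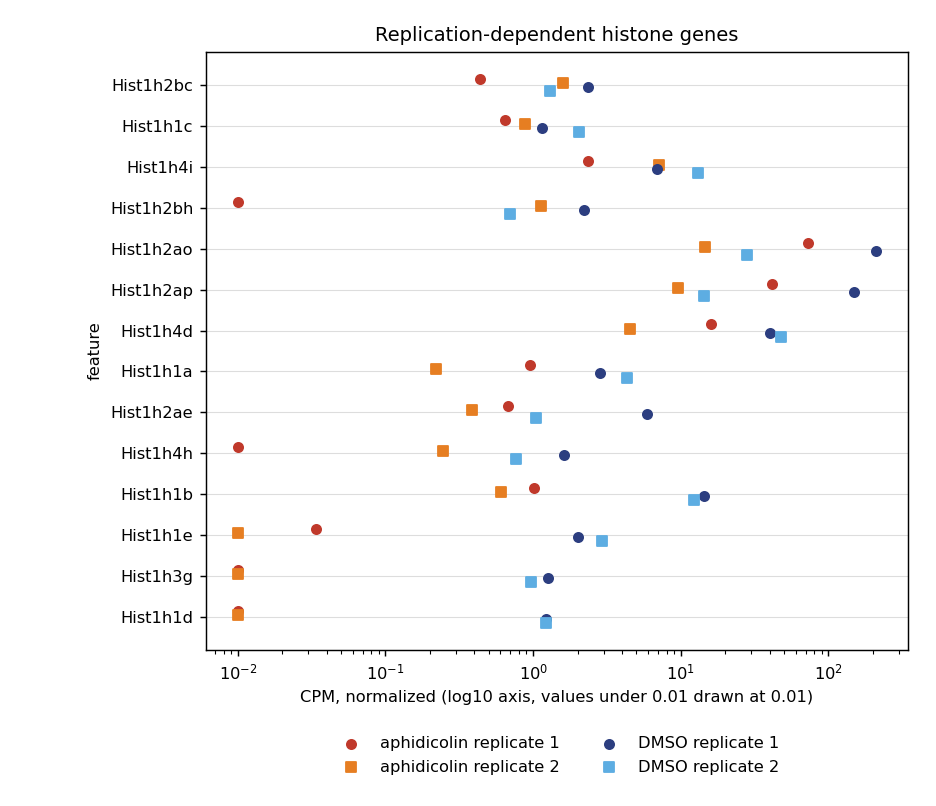
Normalized CPM (log10 axis, values under 0.01 drawn at 0.01) of the 14 replication-dependent histone genes whose higher group averaged 1 CPM or more, with 1 point per library. Hist1h1b and the other H1 genes show both aphidicolin points to the left of both DMSO points, and Hist1h2ao and Hist1h2ap show overlapping groups.

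The factors that handle histone mRNA and histone supply were not lower as a list, with 7 of 20 higher and 5 lower without overlap (18.6 and 16.8% of all genes) and a median of 0.08, or 0.22 without aphidicolin replicate 2. Slbp, whose product binds the stem-loop of histone mRNA, was at 281 and 303 CPM with aphidicolin and at 195 and 207 with DMSO (log2 fold change 0.54, 0.07 to 1.005, edgeR adjusted p = 0.595). Asf1a, an H3 and H4 chaperone gene, was at 65.1 and 169 CPM against 31.0 and 6.42 (2.64, 0.95 to 4.34), called in 2 of the 12 alternatives. The log2 fold change was 1.79 without replicate 2 and 4.18 without DMSO replicate 1. Both were higher in both treated libraries. In the histone promoters, 51 of 56 genes matched a RefSeq window, with 52 windows. The CCAAT box stood in 88.5% of them against 38.5% of all windows, the H1 box AAACACA, added after the data were seen, in 15.4% against 5.19%, and the CHR element TTTGAA in 51.9% against 13.8%. An E2F element (TTTCCCGC, TTTCGCGC, TTTGCCGC or TTTGGCGC) stood in 19.2% against 3.46%, all on either strand. None of these spelled motifs contains another.

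Ribosomal protein transcripts were slightly lower with aphidicolin, and this rested mainly on replicate 2. Of 81 genes, 50 were lower and none higher without overlap (16.8 and 18.6% of all genes), with a median log2 fold change of -0.38. At an unadjusted p under 0.05, 10 were lower and none higher (3.17 and 5.02% of all genes), 1 and 1 without aphidicolin replicate 2 (2.64 and 3.43%), and 45 and 0 without replicate 1 (5.30 and 6.49%), while DESeq2 called none. The median was -0.19 without replicate 2. Rpl5 and Rpl26, large-subunit proteins that are known to act on p53 synthesis or stability, were at 683 and 501 against 1000 and 989 CPM for Rpl5 and 149 and 209 against 359 and 296 CPM for Rpl26. Both genes were lower in both treated libraries. Npm1, a nucleolar histone and ribosome chaperone, was at 2359 and 2012 CPM with aphidicolin and at 5914 and 4528 with DMSO. Its log2 fold change of -1.26 (-1.83 to -0.68) was -1.15 without replicate 2, and it was called lower in 2 of the 12 alternatives. Small nucleolar RNA rows were lower without overlap for 78 of 163 and higher for 6 (16.8 and 18.6% of all genes), with a median of -0.69, although libraries of polyadenylated RNA hold them only in part.

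**Figure D3:**
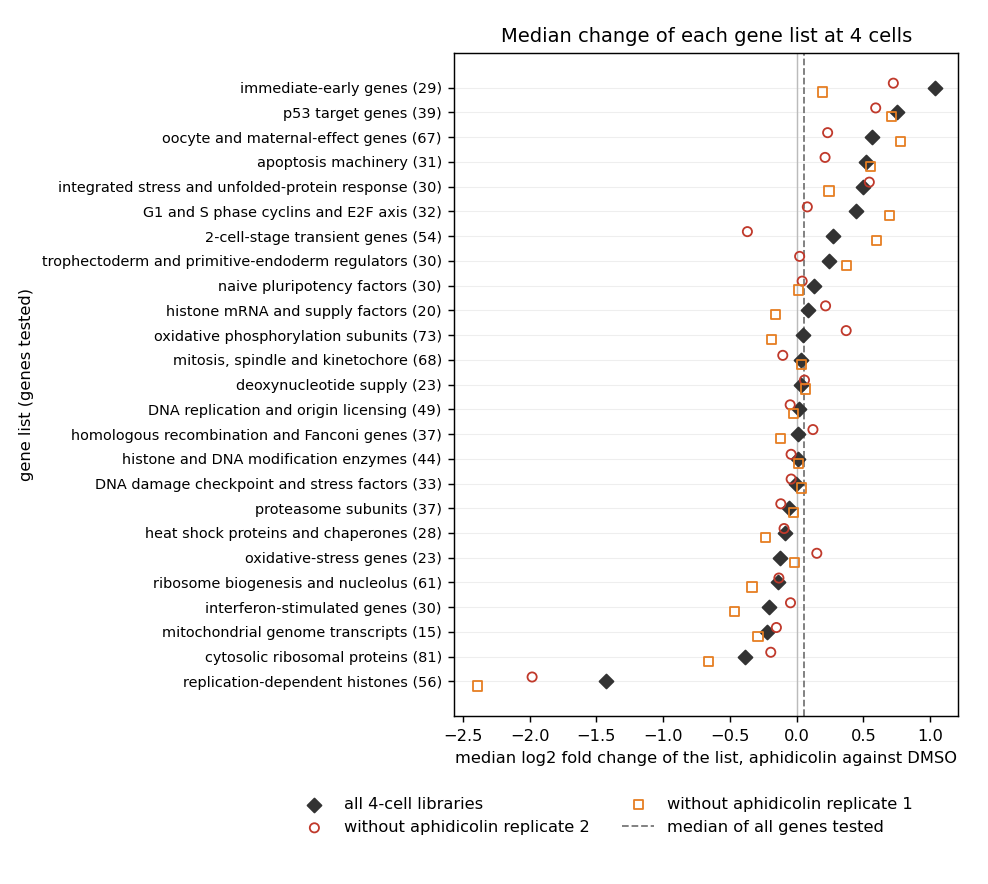
Median log2 fold change of each gene list, aphidicolin against DMSO at 4 cells, with the number of genes tested in brackets. Immediate-early genes (1.04) and p53 targets (0.75) lie farthest to the right, and replication-dependent histones (-1.43) farthest to the left.

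Among stress genes, 8 of 29 immediate-early genes were higher and none lower at a p under 0.05 before adjustment (5.02 and 3.17% of all genes), with a median of 1.04. Without aphidicolin replicate 2 these were 8 and 2 with a median of 0.72 (3.43 and 2.64% of all genes), and without replicate 1 they were 4 and 2 with a median of 0.20 (6.49 and 5.30%). Egr1 (ENSMUSG00000038418.7), a zinc finger transcription factor gene, was at 3.92 and 3.10 CPM with aphidicolin and at 0.280 and 0.0384 with DMSO. Both treated libraries were higher, and the log2 fold change of 4.41 (2.48 to 6.33) was called in 3 of the 12 alternatives, the 18-library fit included (edgeR adjusted p = 0.0252, range over the alternatives 0.000343 to 0.667). Myc, a growth regulator, was at 35.5 and 22.5 CPM against 7.64 and 4.38 (2.27, 0.42 to 4.12, edgeR adjusted p = 0.578). Fos and Jun, the founding members of the class, were at or under 1.02 CPM in all 4 libraries and overlapped. Ddit3, which encodes CHOP of the integrated stress response, was at 29.6 and 26.7 CPM against 10.6 and 9.92 (1.46, 0.88 to 2.03), called in 2 of the 12 alternatives. It overlaps a further annotated row, so its value is uncertain. Atf4, its upstream regulator, was at 92.7 and 66.0 CPM against 66.1 and 82.2 and overlapped. Cgas, the sensor of cytosolic DNA, was at 3.04 and 0.686 CPM against 0.0350 and 0.115, called in 3 of the 12, while of 30 tested interferon-stimulated genes 2 were higher and 2 lower at a p under 0.05 before adjustment (5.02 and 3.17% of all genes). Ftl1, ferritin light chain, was at 331 and 478 CPM against 85.1 and 157 (1.74, 0.81 to 2.67), called in 2 of the 12.

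Oocyte and maternal transcripts had higher levels with aphidicolin for part of the list. Of 67 genes, 26 were higher and 6 lower without overlap (18.6 and 16.8% of all genes), and 13 were higher and 2 lower at a p under 0.05 before adjustment (5.02 and 3.17%), with a median of 0.56. The latter counts were 8 and 3 with a median of 0.23 without aphidicolin replicate 2 (3.43 and 2.64% of all genes), and 19 and 5 with a median of 0.78 without replicate 1 (6.49 and 5.30%). DESeq2 called 4 higher, Btg4, Elavl2, Kit and Nlrp4b. Elavl2, an RNA-binding protein of the oocyte, was at 49.7 and 35.6 CPM with aphidicolin and at 11.4 and 6.46 with DMSO (log2 fold change 2.26, 1.36 to 3.15), with both treated libraries higher, and was called in 3 of the 12 alternatives. Btg4, an adaptor of the deadenylase that clears maternal mRNA, was at 51.0 and 141 CPM against 26.7 and 24.7. Its log2 fold change of 1.90 (0.93 to 2.87) was 0.98 without replicate 2. Kit, a receptor tyrosine kinase gene, was at 10.1 and 23.4 CPM against 5.15 and 3.31, a log2 fold change of 1.99 that was 1.25 without replicate 2. The summed level of the whole list, given above, overlapped between the groups, with aphidicolin replicate 1 above both DMSO libraries and replicate 2 below them.

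For genes of the 2-cell burst, the sign of the median depended on the treated library. Of 54 genes, 10 were higher and 9 lower without overlap (18.6 and 16.8% of all genes), and 3 were higher and 3 lower at a p under 0.05 before adjustment (5.02 and 3.17%), with a median of 0.27. Without aphidicolin replicate 2 these were 3 and 6 with a median of -0.37 (3.43 and 2.64% of all genes), and without replicate 1 they were 9 and 4 with a median of 0.60 (6.49 and 5.30%). Zscan4d, the best known of them, was at 18.7 and 13.99 CPM with aphidicolin and at 10.1 and 3.38 with DMSO (log2 fold change 1.28, 0.03 to 2.52, edgeR adjusted p = 0.607). Zfp352, a retrogene of the same stage, was at 6.93 and 45.1 CPM against 18.2 and 7.31, and replicate 2 was the highest library (log2 fold change 1.03, and -0.88 without it). Rfpl4b, a ret finger protein-like gene, was at 11.2 and 31.0 CPM against 5.47 and 2.65, with both treated libraries higher. The log2 fold change of 2.38 (1.10 to 3.65) was 1.45 without replicate 2, and DESeq2 and the unfiltered edgeR fit called it, 2 of the 12 alternatives. Obox6, a homeobox gene, was at 633 and 823 CPM against 1238 and 1227 (-0.76, -1.25 to -0.27). Both treated libraries were lower, and DESeq2 called it, 1 of the 12 alternatives. Obox6 was not highest at 2 cells in these data. On the scale of the 18-library fit, DMSO embryos held 34.6 and 22.9 CPM of it at 2 cells and 1341 and 1312 at 4. The summed level of the whole list did not fall between these stages either, with 4158 and 4018 CPM in DMSO embryos at 2 cells and 4535 and 4251 at 4. Zscan4 and Obox genes have near-identical copies, so these values are uncertain.

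Counts of pluripotency and lineage genes at a low p were small, and whether they differ from the shares of all genes was not tested. Of 30 naive pluripotency factors, 2 were higher and 2 lower at a p under 0.05 before adjustment (5.02 and 3.17% of all genes), and of 30 trophectoderm and primitive endoderm regulators, none either way. Fbxo15, an F-box gene of the early embryo, was at 939 and 957 CPM with aphidicolin and at 2086 and 1900 with DMSO, with all libraries close to their group's mean. Its log2 fold change of -1.07 (-1.65 to -0.49) was -1.09 without replicate 2, and it was called in 2 of the 12 alternatives. Dppa5a, an RNA-binding protein of pluripotent cells, was at 7548 and 4232 CPM against 4866 and 5689 and overlapped. Tead4, the trophectoderm regulator, was at 55.7 and 44.0 CPM against 33.6 and 33.3 (0.58, -0.12 to 1.27).

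Outside the lists, the genes of largest change among those DESeq2 called, of 10 CPM or more in the higher group and without overlap, were taken after the data were seen. Dlg4, a synaptic scaffold gene, was at 1.29 and 0.768 CPM with aphidicolin and at 17.6 and 41.6 with DMSO, a log2 fold change of -4.85 (-7.01 to -2.69). Dancr (ENSMUSG00000106943.2), a long non-coding RNA, was at 41.4 and 34.2 CPM against 194 and 140 (-2.14, -2.98 to -1.30). Both were far lower in both treated libraries and were called in 2 of the 12 alternatives. Spesp1, a gene of a sperm equatorial segment protein, was at 2.27 and 0.686 CPM against 31.8 and 5.96, with controls far apart. The log2 fold change of -3.68 (-6.13 to -1.23) ran from -4.79 to -2.03 over the alternatives, the latter without DMSO replicate 1, and was called in 2 of them. Atf7, a transcription factor gene, was at 3.86 and 1.10 CPM against 15.6 and 13.6 (-2.56, -4.13 to -0.99), and Ddah1, which encodes an enzyme that breaks down methylarginines, at 14.2 and 6.91 against 40.4 and 35.95 CPM (-1.85, -2.89 to -0.82). Ago4, an Argonaute gene, was at 6.97 and 8.59 CPM against 29.7 and 18.2 (-1.62, -2.61 to -0.64). Each of these 3 was lower in both treated libraries and was called in 1 of the 12 alternatives, DESeq2. Of the increases, Crip2, a LIM domain gene, was at 23.8 and 15.3 CPM against 0.666 and 3.11 (3.37, 1.46 to 5.29), and Ppp1r14a, a phosphatase inhibitor gene, at 16.4 and 28.6 against 3.57 and 1.54 CPM (3.13, 1.61 to 4.65). Tspan13, a tetraspanin gene, rested on replicate 2, at 2.54 and 22.4 CPM against 1.79 and 1.04, and its log2 fold change of 3.14 was 0.84 without it. Rnaset2a has a near-identical copy, so its log2 fold change of 2.75 is uncertain. In the 18-library fit, 61 of the 72 called genes were under 10 CPM, and 24 were at 0 in 1 group. Of the rest, Gdap1, a mitochondrial outer membrane protein, was at 116 and 120 CPM with aphidicolin and 18.97 and 32.0 with DMSO on that fit's scale (log2 fold change 2.21, 1.48 to 2.93, edgeR adjusted p = 0.0229), and Auh, a mitochondrial hydratase, at 24.0 and 55.2 against 6.26 and 7.49 CPM (2.53, 1.57 to 3.48, edgeR adjusted p = 0.0304). Both were higher in both treated libraries, and DESeq2 and the unfiltered edgeR fit called both too.

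Most repeat subfamilies were lower with aphidicolin, the median log2 fold change being -0.32 against 0.05 for genes, but none passed the test. Without overlap, 438 of 1003 were lower (43.7%) and 65 higher (6.48%), and at an unadjusted p under 0.05, 71 were lower (7.08%) and 6 higher (0.598%). DESeq2 called 11 lower (1.10%) and none higher, 8 of them in the ERVK family. That family holds the IAP and related endogenous retroviruses, and 276 of the 1003 subfamilies tested. The unfiltered edgeR fit called 8 of 1100 lower (0.727%) and 2 higher (0.182%). ERVK rows took 0.879 and 0.907% of counts with aphidicolin and 1.35 and 1.26% with DMSO, so both treated libraries were lower. The shares of B1, B4 and ERV1 rows were also lower in both treated libraries, while that of all LTR rows overlapped (6.44 and 8.76% against 7.62 and 7.57%). Of 276 ERVK subfamilies, 136 were lower and 14 higher without overlap (43.7 and 6.48% of all repeat subfamilies). Of 152 LINE subfamilies, 75 were lower and 8 higher, and of 16 Alu-related B1 subfamilies, 15 lower and none higher.

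RLTR45-int, the internal part of an ERVK element, was at 1069 and 929 CPM with aphidicolin and at 2173 and 2343 with DMSO, with tight groups. Its log2 fold change was -1.18 (-1.83 to -0.53), with adjusted p-values of 0.501 in edgeR and 0.0156 in DESeq2 and a range over the alternatives of 0.00996 to 0.984. MMERVK10C-int was at 446 and 687 CPM against 1401 and 1112 (-1.15, -1.83 to -0.47). IAPA_MM-int was at 62.1 and 38.9 CPM against 168 and 121 (-1.52, -2.30 to -0.73). These 3 were lower in both treated libraries and were called in 2 of the 12 alternatives each. IAPEz-int, the most studied IAP, was at 663 and 317 CPM against 1237 and 796, a log2 fold change of -1.05 (-1.94 to -0.16) that was -0.62 without replicate 2. L1_Mm was at 47.2 and 50.1 CPM against 104 and 80.7 (-0.92, -1.48 to -0.37), whereas L1Md_T, a young L1 subfamily, was at 155 and 271 against 324 and 198 CPM and overlapped (-0.29, and -0.75 without replicate 2).

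MERVL-int, the retrovirus of the 2-cell stage, was at 4153 and 9725 CPM with aphidicolin and at 6987 and 6547 with DMSO. The treated libraries lay on either side of the controls, with a log2 fold change of 0.04 (-1.01 to 1.08) that was -0.71 without replicate 2 and 0.51 without replicate 1. Its long terminal repeat MT2_Mm was at 5062 and 8614 CPM against 8122 and 6382 and overlapped likewise (-0.08, and -0.52 without replicate 2). MTA_Mm, a MaLR element of oocytes, was at 2940 and 4532 CPM against 1780 and 1991, with both treated libraries higher (0.99, 0.26 to 1.71, edgeR adjusted p = 0.538, and 0.64 without replicate 2), and was called in 1 of the 12 alternatives, the fit without a filter. B2_Mm2 was at 20942 and 7706 CPM against 17808 and 19648, with replicate 2 as the low library, and its log2 fold change of -0.39 was 0.16 without it. GSAT_MM, the major satellite, was at 2.13 and 0.933 CPM against 2.45 and 3.11.

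**Figure D4:**
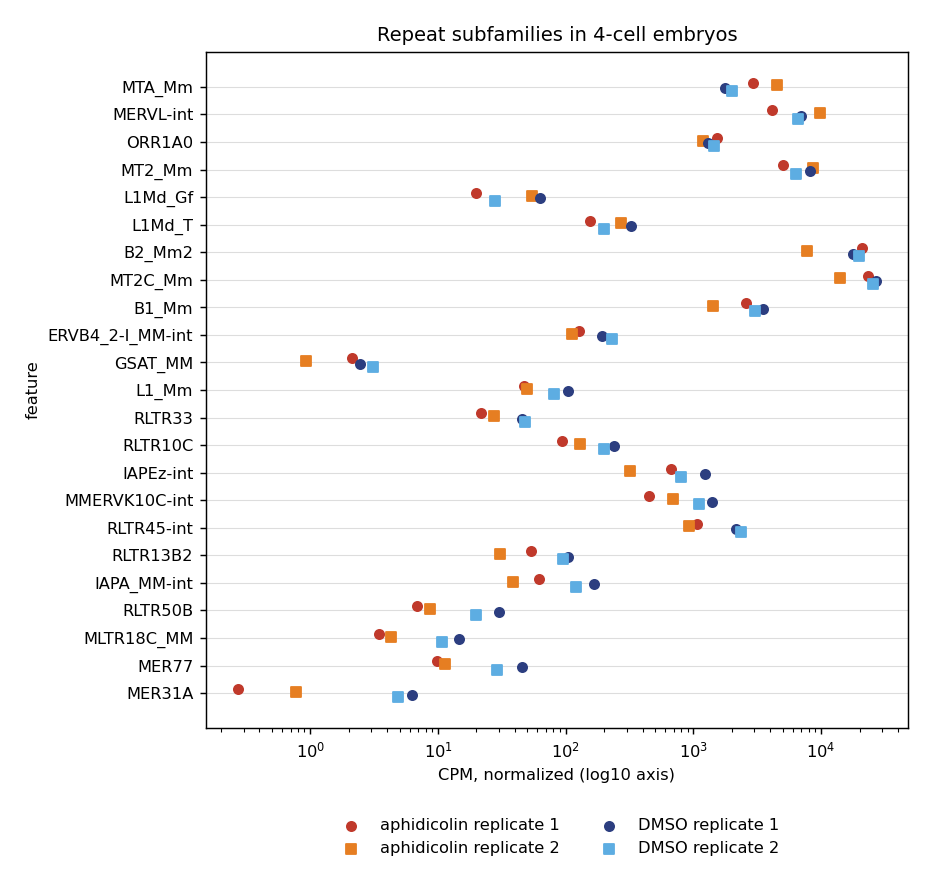
Normalized CPM (log10 axis) of 23 repeat subfamilies, with 1 point per library of the aphidicolin and DMSO groups. They are the index subfamilies and those that DESeq2 called, and not all are named in the text. RLTR45-int, MMERVK10C-int and IAPA_MM-int show both aphidicolin points to the left of both DMSO points, and MERVL-int shows them on either side.

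Against the other drugs of the 4-cell stage, differences were far more numerous. Cycloheximide (CHX), which blocks translation, differed from aphidicolin at 3591 of 22520 genes (15.9%) and 56 of 1003 repeat subfamilies (5.58%, 2.49% higher and 3.09% lower) in the same fit. With aphidicolin 2208 genes were higher (9.80%) and 1383 lower (6.14%). Cytosolic ribosomal protein genes were higher than with CHX for 74 of 81 and lower for none, and replication-dependent histones lower for 12 of 56 and higher for none. The histone list summed to 1020 and 805 CPM with CHX and to 154 and 51.0 with aphidicolin. Histone genes that passed the low-count filter only through the CHX libraries could come out only as lower, so this count is not a test of the list. Ly6a, a surface antigen gene, was at 25.7 and 11.5 CPM with aphidicolin and at 0 in both CHX libraries, at least 412-fold higher against 3 counts over the group. Pcdh10, a protocadherin gene, was at 0 in both aphidicolin libraries and at 18.9 and 24.5 CPM with CHX, at least 473-fold lower. RLTR45-int was far above its CHX level, at 1069 and 929 CPM with aphidicolin and at 47.2 and 60.3 with CHX, a log2 difference of 4.22 (SE 0.32, edgeR adjusted p = 0.000440). GSAT_MM was at 2.13 and 0.933 CPM against 24.9 and 32.9 (-4.24, SE 0.59, edgeR adjusted p = 0.00748).

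MG132, a proteasome inhibitor, differed from aphidicolin at 1164 genes (5.17%), 839 higher (3.73%) and 325 lower (1.44%) with aphidicolin, and at 7 repeat subfamilies (0.698%), 2 higher (0.199%) and 5 lower (0.499%). No gene was called when only the 4 libraries of these groups were fitted. Subunits of oxidative phosphorylation were higher with aphidicolin for 37 of 73 and lower for none, and proteasome subunits higher for 19 of 37 and lower for 1. Hspa1a, an inducible heat shock protein gene, was at 0.440 and 0.329 CPM with aphidicolin and at 49.3 and 48.3 with MG132 (-6.98, SE 0.52, edgeR adjusted p = 0.00319), and Hspa1b, its near-identical copy, at 0.507 and 0.0823 against 62.5 and 29.6 CPM (-7.31, SE 0.87, edgeR adjusted p = 0.00725). Of the p53 targets, 4 of 39 were higher and 1 lower than with MG132 (3.73 and 1.44% of all genes), with a median log2 fold change of -0.03. Ccng1 (3.73, edgeR adjusted p = 0.0194) and Cdkn1a (2.36, edgeR adjusted p = 0.0401) were among the higher ones. Against CHX, 6 targets were higher and 4 lower (9.80 and 6.14% of all genes), with a median of -0.02. RLTR45-int was again higher with aphidicolin, against 171 and 98.4 CPM (2.89, SE 0.30, edgeR adjusted p = 0.00610), and RLTR50B lower, at 6.799 and 8.73 against 63.1 and 45.7 CPM (-2.81, SE 0.38, edgeR adjusted p = 0.0127).

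Aphidicolin was also given at the 2-cell stage, in 2 libraries beside 2 DMSO libraries, where 124 of 27201 genes (0.456%) and 6 of 1053 repeat subfamilies (0.570%) passed edgeR's test. The difference of the drug's effect between the stages was tested in the fit of all 18 embryo libraries, which includes 2-cell embryos of 12-month-old females for the spread only. No gene of 27201 and no repeat subfamily of 1053 passed it (0% of each), while 2891 genes (10.6%) and 37 repeat subfamilies (3.51%) had an unadjusted p under 0.05 and DESeq2 called 538 (1.98%) and 3 (0.285%), the latter L1M3e, MERVL-int and MT2_Mm. Cdkn1a was at 2.26 and 6.35 CPM with aphidicolin and 12.3 and 9.69 with DMSO at 2 cells, where its log2 fold change was -1.34 (-2.51 to -0.16). On the same scale it was at 115 and 198 against 20.2 and 40.7 CPM at 4 cells, so the treated libraries were lower at 2 cells and higher at 4. The difference was 3.70 (2.03 to 5.37, edgeR adjusted p = 0.0920). Ccng1 changed by -0.35 at 2 cells and 3.05 at 4 in log2 terms (difference 3.40, 1.37 to 5.43, edgeR adjusted p = 0.194). For Ccne1 these values were -2.28 and 1.22 (3.50, 1.94 to 5.06, edgeR adjusted p = 0.0911), and for Egr1 0.54 and 4.39 (3.84, 1.89 to 5.80, edgeR adjusted p = 0.127). These genes were already named above as higher with aphidicolin at 4 cells, so the shared direction of their differences is not a result. For Mdm2 the difference was -0.27 (-1.20 to 0.66). None of these differences passed the adjustment in edgeR. DESeq2 called those of Cdkn1a, Ccng1, Ccne1 and Egr1 (DESeq2 adjusted p = 0.00237, 0.0284, 0.00156 and 0.000641).

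Histone, 2-cell and repeat features completed the comparison of stages. Hist1h1b had log2 fold changes of -0.73 at 2 cells and -4.06 at 4 (difference -3.33, -6.23 to -0.42, edgeR adjusted p = 0.408). Dancr was lower at both stages, with -2.003 and -2.16, and Npm1 went from 0.48 to -1.27 (difference -1.76, -2.60 to -0.91, edgeR adjusted p = 0.112). Zscan4d was at 17.5 and 42.5 CPM with aphidicolin and 203 and 410 with DMSO at 2 cells, and at 19.9 and 14.95 against 10.9 and 3.62 CPM at 4. It fell at 2 cells (-3.35, -4.61 to -2.08, edgeR adjusted p = 0.0225) and its log2 fold change was 1.26 at 4 (difference 4.61, 2.88 to 6.33, edgeR adjusted p = 0.0804). MERVL-int was at 980 and 2495 CPM against 20938 and 13107 at 2 cells and at 4414 and 10392 against 7567 and 7004 at 4. It also fell at 2 cells (-3.29, -4.55 to -2.03, edgeR adjusted p = 0.0231), with a difference between the stages of 3.32 (1.64 to 4.99, edgeR adjusted p = 0.464). Of the ERVK elements, RLTR45-int had log2 fold changes of -0.04 and -1.19 (difference -1.15, -2.01 to -0.29), and IAPEz-int of -1.22 and -1.07 (difference 0.15, -1.13 to 1.43). Neither difference passed edgeR's adjusted test.

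**Figure D5:**
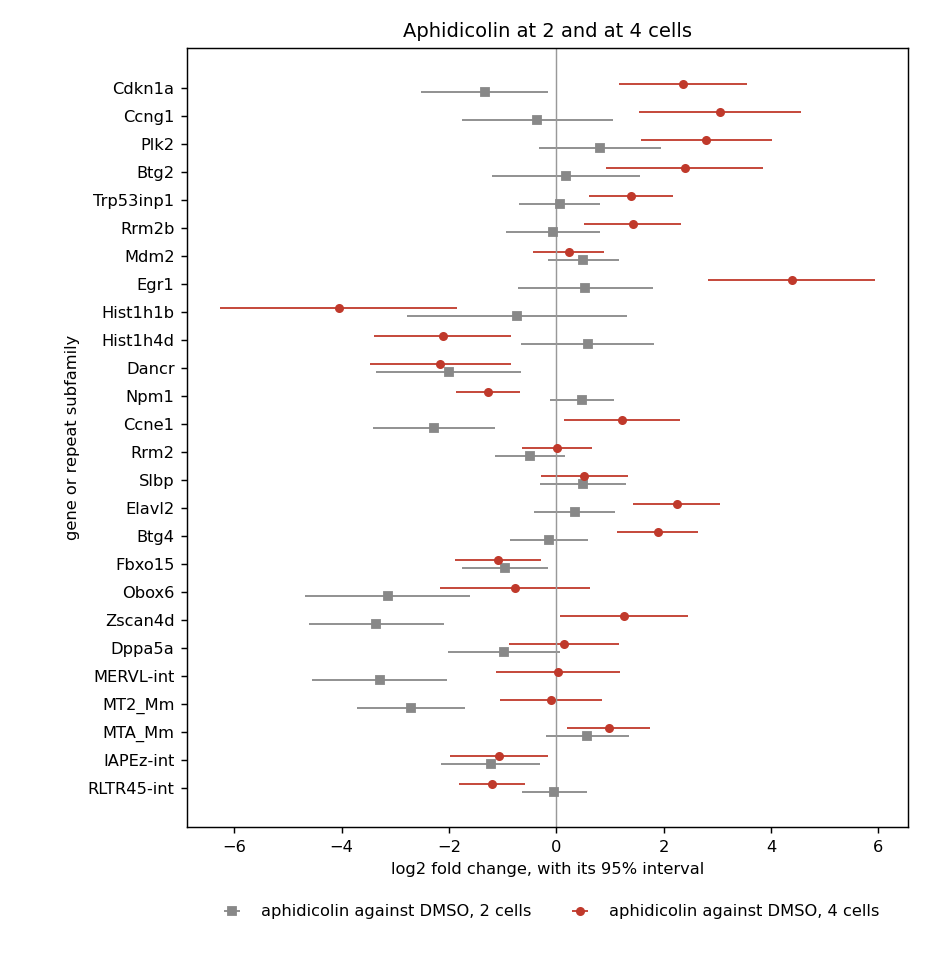
Log2 fold change of aphidicolin against DMSO with its 95% interval at 2 cells and at 4 cells, both from the fit of all 18 embryo libraries. Zscan4d, MERVL-int and MT2_Mm lie left of 0 at 2 cells and near or right of it at 4, Cdkn1a and Ccne1 lie on opposite sides of 0, and Dancr lies left of 0 at both stages.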

How the data were processed

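RNA of 4-cell and 2-cell embryos was sequenced with Smart-seq2, per the labels' protocols. The authors deposited read counts per gene and per repeat subfamily (55335 and 1153 rows), not normalized. Per the submitters' processing notes, cutadapt 1.16 and STAR were used with build mm10. The counter, its use of strand and its handling of multi-mapping reads are missing from the sources used here. Of the gene rows, 55154 matched GENCODE on the same build once version numbers were dropped.

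Counts were tested with edgeR 4.0.16 (R 4.3.3): filterByExpr by group (minimum count 10, minimum total 15), TMM scaling over genes and repeats, quasi-likelihood F-tests, and Benjamini-Hochberg adjustment separately over genes and repeat subfamilies at 0.05. CPM values are TMM-scaled. The 4-cell fit held 8 libraries and the stage fit 18. DESeq2 1.42.0 was an alternative. The scripts were tested on simulated counts.

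The comparison and the gene lists were chosen with earlier results of these data known. Named genes are a set of index genes and subfamilies and, for each comparison, the largest called changes of 10 CPM or more without overlap. As edgeR called none against DMSO, this rule was applied to DESeq2's calls and to those of the 18-library fit, and called list members and repeats were added, after the data were seen. A bound against a group at 0 takes 3 counts for that group, and it allows for counting error alone. Replicate numbers were not treated as pairs in the reported fits.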

Additional observations from a re-analysis of the deposited data

How the results depend on the processing

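In aphidicolin against DMSO the count of called genes, 0 in the reported fit, was 347 without a low-count filter, 224 with DESeq2's Wald test and 72 with all 18 embryo libraries in the fit (added after the data were seen). For repeat subfamilies it was 10 without the filter and 11 with DESeq2. With each library left out in turn it was 0 to 1 for genes (Cphx3, without aphidicolin replicate 2, at 10.3 CPM in replicate 1 and 0 in the other 3 libraries) and 0 to 1 for repeats (MTA_Mm-int, higher, without aphidicolin replicate 1), both named after their values were seen. DESeq2 size factors, a filter of 5 CPM in 2 libraries, library sizes from gene rows and a fit of the 4 libraries alone left both counts at 0. Of 71 described features, 45 were called by DESeq2, 37 without the filter, 6 in the 18-library fit and none in the other alternatives. Apart from the index features, they were taken because DESeq2 called them. The first count was therefore largely fixed by the choice, and the counts of the other fits are not independent of it. No called feature reversed its direction.

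Against CHX (3591 genes and 56 repeat subfamilies), DESeq2 called 5844 genes, and leaving out 1 library gave 1840 (CHX replicate 1) to 3268. With DESeq2 the split was 2948 higher and 2896 lower. Repeat counts were 92 without the filter, 127 with 5 CPM, 179 with DESeq2, 5 with the 4 libraries alone and 13 to 50 with a library left out. Against MG132 (1164 and 7), genes numbered 2880 without the filter, 1998 with 5 CPM, 3276 with DESeq2, 0 with the 4 libraries alone and 513 (MG132 replicate 1) to 1255 with a library left out. Repeats numbered 57, 18, 124 and 0 in the same order, and 3 to 27. For the stage difference (0 and 0), genes numbered 849 without the filter, 538 with DESeq2 and 0 to 162 with a library left out, 162 without 4-cell aphidicolin replicate 1 and 110 without 2-cell aphidicolin replicate 2. Repeats numbered 6 and 3, and 0 to 6. The causes were not tested, apart from fewer libraries where one was left out.

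With a replicate block, 0 genes and 0 repeats were called against DMSO, 3678 and 48 against CHX, 1407 and 7 against MG132, and 0 and 0 in the stage difference. Same-numbered libraries did not deviate together (correlations -0.0142 to 0.0450 across 22520 genes). This cannot show whether they came from the same culture or collection. With 2 libraries per group, a 2-fold change of most genes was not resolved.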
